A study of Rattus norvegicus with 6 samples.

Results

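Chemokines are small secreted or membrane-anchored proteins that guide leukocytes and other cells along concentration gradients by way of G-protein-coupled receptors. Inflammatory chemokines such as Cxcl1 and Ccl2 are made when cells meet cytokines, microbial products or injury, largely through the transcription factor NF-kB, whereas Cxcl12 is made steadily by stromal cells and is called homeostatic. Ackr3 encodes an atypical receptor that binds CXCL12 without G-protein signalling and takes it up for degradation, which is why it is called a decoy or scavenger receptor. In the heart, fibroblasts and other stromal cells are known sources of CCL2 and CXCL12 after injury.

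The 10 genes described here were taken by symbol from the 18237 rows of the gene counts, and all 10 were found. They comprise the inflammatory ligands Cxcl1, Cxcl2, Cxcl10, Ccl2, Ccl7 and Ccl20, the membrane-anchored ligands Cxcl16 and Cx3cl1, the homeostatic ligand Cxcl12 and the receptor Ackr3. The counts come from RNA sequencing of cultured rat cells labelled NRVM (usually short for neonatal rat ventricular myocytes), which the growth protocol describes as embryonic. Cells of both groups were kept in DMEM with fetal bovine serum and received an siRNA. It was a control siRNA in the 3 siNT libraries and an siRNA against Mt2, a metallothionein gene, in the 3 siMt2 libraries. The protocol text common to all libraries also names dexamethasone, an anti-inflammatory steroid, with isobutylmethylxanthine and insulin. It does not say whether these cells received them. Strain and further age are not given in the sources used here.

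Total counts ranged from 4216586 to 6567793 in the siNT libraries and from 2859759 to 6817777 in the siMt2 libraries. The targeted transcript, Mt2a, did not pass the test (log2 fold change -0.28, SE 0.42, edgeR adjusted p = 0.631), so groups are named by their labels throughout. Of the 10 heart muscle markers chosen, 8 had a row and 1, Tnnt2, had enough counts to be tested. Tnnt2, which encodes cardiac troponin T, had 1201 of all 30244268 counts and rose from 27.2 ± 1.38 to 54.5 ± 5.19 CPM (counts scaled to a common library total; SD, n = 3 each; log2 fold change 1.01, edgeR adjusted p = 1.81e-07). The other 7 were near 0 in both groups, from Tnni3 with 3 counts, Actc1 with 4 and Myh6 with 9 up to Ryr2 with 24 and Pln with 51. The labels do not say whether libraries of a group are separate cultures, and p-values therefore measure only library-to-library spread, possibly technical.

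The promoter sequences are shown first because several inflammatory chemokine genes are textbook targets of NF-kB and AP-1. Of the 10 genes, 9 matched by symbol an entry of the RefSeq promoter table (build GRCr8, not the build rn6 of the counts), and Ccl2 did not. Each window runs from 250 bases before the start site to 50 bases after it. The NF-kB consensus, a motif of GGG and CC around partly variable bases, and the AP-1 motif TGANTCA, where N is any base, were searched on both strands. The 200 bases upstream of the start site are printed below for 3 inflammatory ligands with a consensus match and for Cxcl12, with none, 5′ to 3′ along the gene's strand. Capitals mark the bases of the NF-kB consensus matches. The stretches are chr14:17479322-17479521 (minus strand) for Cxcl1, chr14:17467256-17467455 (minus strand) for Cxcl2, chr14:15988866-15989065 (plus strand) for Cxcl10 and chr4:152060581-152060780 (plus strand) for Cxcl12.
Cxcl1: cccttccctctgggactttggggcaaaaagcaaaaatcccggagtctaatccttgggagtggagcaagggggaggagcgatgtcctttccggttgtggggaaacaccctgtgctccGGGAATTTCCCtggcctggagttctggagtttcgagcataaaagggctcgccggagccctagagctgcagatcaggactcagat
Cxcl2: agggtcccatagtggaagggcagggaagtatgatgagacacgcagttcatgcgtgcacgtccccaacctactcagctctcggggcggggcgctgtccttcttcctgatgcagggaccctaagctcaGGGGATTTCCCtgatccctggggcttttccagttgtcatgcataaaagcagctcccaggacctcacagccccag
Cxcl10: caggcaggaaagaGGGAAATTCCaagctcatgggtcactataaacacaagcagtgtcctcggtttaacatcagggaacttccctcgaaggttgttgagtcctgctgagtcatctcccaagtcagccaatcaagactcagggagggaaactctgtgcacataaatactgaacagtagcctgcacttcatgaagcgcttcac
Cxcl12: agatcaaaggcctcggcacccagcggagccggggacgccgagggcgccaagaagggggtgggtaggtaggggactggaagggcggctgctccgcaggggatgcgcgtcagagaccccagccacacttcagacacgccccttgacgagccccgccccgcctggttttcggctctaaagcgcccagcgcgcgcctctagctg

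The NF-kB consensus was found in the windows of 4 of the 9 genes, the inflammatory ligands Cxcl1, Cxcl2, Cxcl10 and Ccl20. It was not found in those of Ccl7, Cxcl12, Cxcl16, Cx3cl1 and Ackr3. Of all 33469 windows, 4.18% held it. Cxcl1 had overlapping matches on opposite strands at -84 to -75 and -83 to -74, counted from the start site. Cxcl2 had 3 overlapping matches within -74 to -64, Cxcl10 had 1 at -187 to -178 and Ccl20 had 1 at -89 to -80. A looser form of the motif with free middle bases, which 5.37% of windows held, also matched Ccl7 (-59 to -50) and further places in Cxcl1, Cxcl2 and Cxcl10, and again none in Cxcl12, Cxcl16, Cx3cl1 or Ackr3. The motifs were chosen with the members known.

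The AP-1 motif, which reads the same on both strands, was present in Cxcl10 (-96 to -90) and Ccl7 (-73 to -67) and in 7.33% of all windows, and overlapped none of the NF-kB matches. Among tested genes with a window, the NF-kB consensus was held by 5.81% of the 2238 that were higher in siMt2, 4.22% of the 2296 that were lower and 5.62% of the 4040 that did not pass. Genes that rose thus held it about as often as genes that did not pass. A match describes the sequence only, and an absent match says only that the letters are not in this window.

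**Figure D1:**
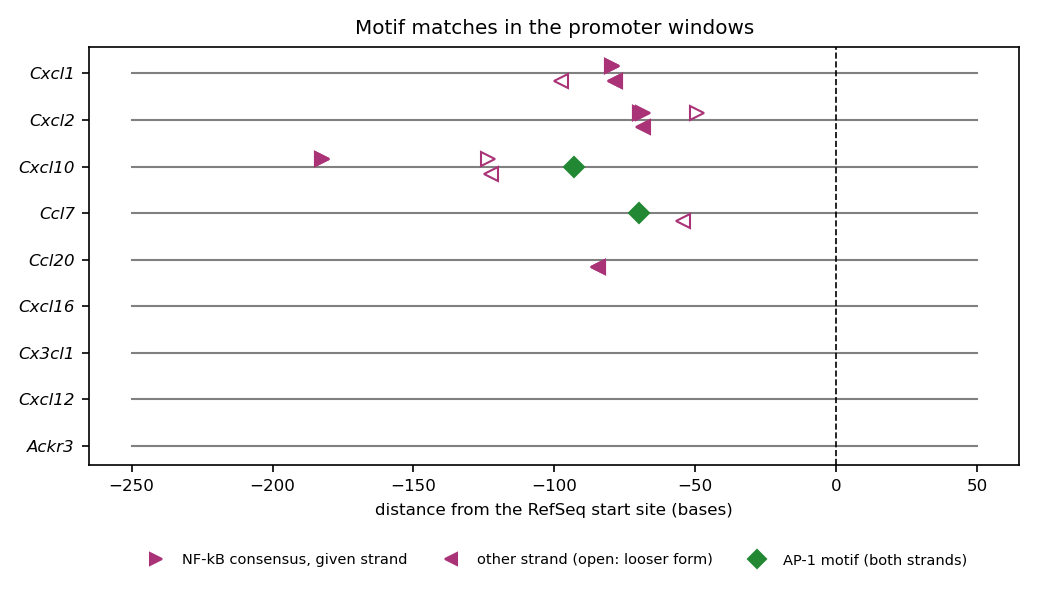
Positions of motif matches in the promoter windows of 9 genes, as distance in bases from the RefSeq start site (x axis, dashed line at the start); filled triangles are NF-kB consensus matches and open ones matches of its looser form, on the given (right-pointing) or the other strand (left-pointing), and diamonds are AP-1 matches. All matches lie in 5 inflammatory ligands, between -187 and -45.

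Every chemokine ligand with enough counts to be tested was higher in the libraries labelled siMt2, the inflammatory and the homeostatic ones alike, while the decoy receptor Ackr3 did not pass the test. Cxcl1 was 10.95 times and Cxcl12 3.05 times its siNT level, while the rise of Cxcl10 depended on single libraries. Of the 10 genes 9 were tested; 8 rose, 0 fell and 1 did not pass at an edgeR adjusted p of 0.05, where 25.8% of all 11726 genes tested were called higher, 25.1% lower and 50.9% in either direction. No gene of the 9 was lower at an unadjusted p under 0.05 either (0), and DESeq2 and limma-voom called 0 lower. For 7 of the 9 the libraries of the groups did not overlap, as for 57.6% of all genes tested. The median log2 fold change of the 9 was 1.56, against 4.90e-04 over all genes tested. Cxcl2 and Cx3cl1 met the count filter only through their siMt2 libraries, so their presence among the tested genes already required a difference. The count of 8 and the median include both. The 10 genes were also chosen with earlier results of these data known, so the contrast with all genes tested only describes them.

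**Figure D2:**
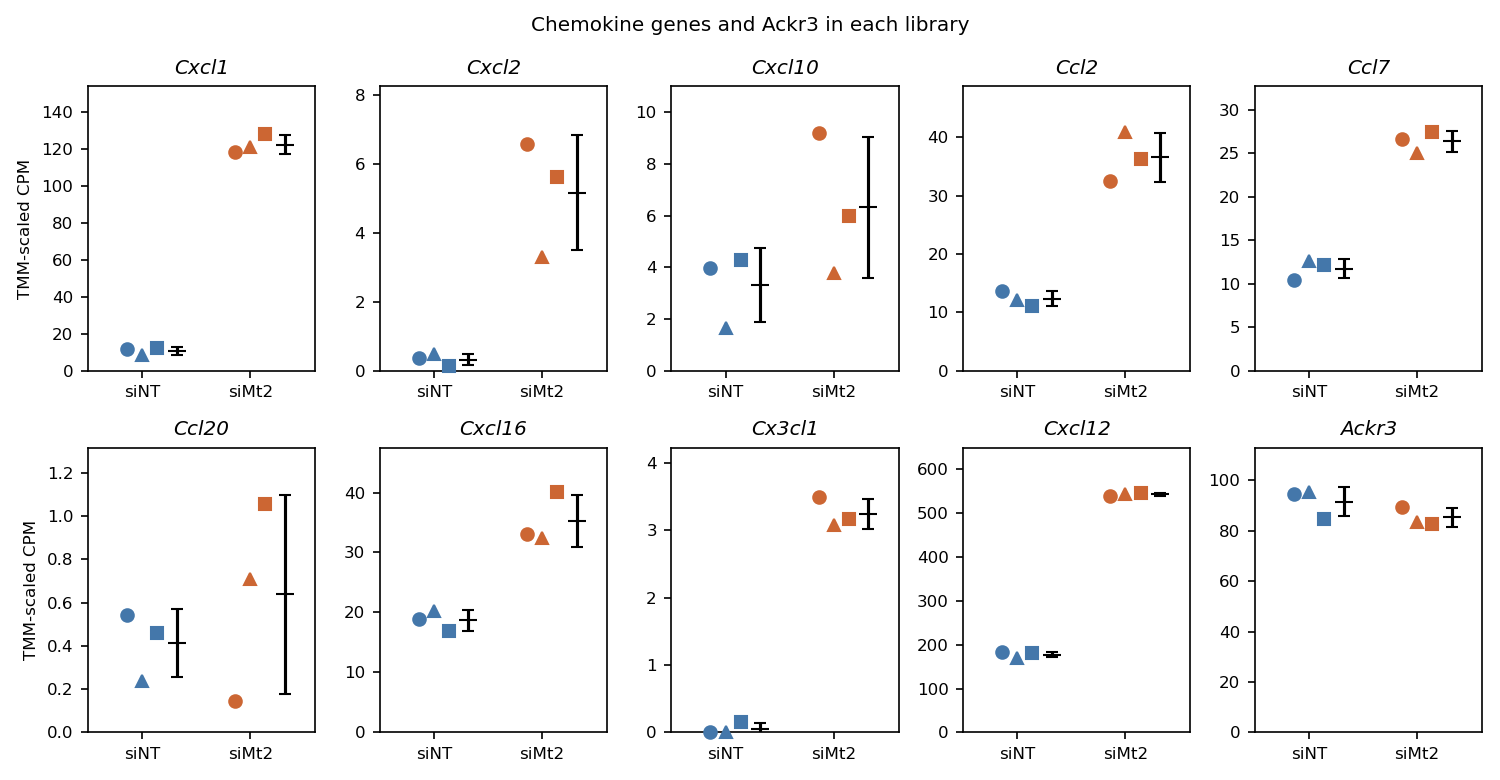
TMM-scaled CPM (y axes from 0, own scale in each panel) of the 10 genes in the 3 siNT (blue) and 3 siMt2 (orange) libraries; circles, triangles and squares are replicates 1, 2 and 3 and the bar is the mean ± SD. The groups stand apart for 7 genes and overlap for Cxcl10, Ccl20 and Ackr3.

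Cxcl1, which attracts neutrophils through the receptor CXCR2, had siNT counts of 66, 35 and 81 and siMt2 counts of 813, 512 and 364. Scaled to a common library total (CPM, with edgeR's TMM factors), these were 11.9, 8.37 and 12.4 CPM against 119, 121 and 128 CPM. The 3 siMt2 libraries lay close together and far above every siNT library. Cxcl1 averaged 10.9 ± 2.21 and 123 ± 4.94 CPM (SD, n = 3 each). The rise was 3.45 on the log2 scale (SE 0.11, edgeR adjusted p = 2.35e-15), or 10.95-fold with a 95% interval of 9.29 to 12.9. It had the 10th largest log2 rise of all genes tested.

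Cxcl2, its close relative and a ligand of the same receptor, is the next gene to Cxcl1 in the RefSeq annotation of rat chromosome 14. It was nearly undetected in the siNT libraries, with 2, 2 and 1 counts, and had 45, 14 and 16 counts in the siMt2 libraries. In CPM it stood at 0.361, 0.478 and 0.153 and at 6.57, 3.31 and 5.63, so the lowest siMt2 library was above the highest siNT library. All siNT values were below the level that 3 counts represent in their library (0.46 to 0.717 CPM). The fitted log2 fold change was 3.98 (SE 0.53, edgeR adjusted p = 2.65e-06), with a 95% interval of 2.88 to 5.08. Pooled over libraries, 5 of 16345901 siNT counts and 75 of 13898367 siMt2 counts give a ratio of 17.6 with a counting interval of 7.23 to 55.9. The labels do not say how reads matching both genes were counted, so the split between Cxcl1 and Cxcl2 is uncertain.

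Ccl2, which recruits monocytes through CCR2, went from 13.7, 12.2 and 11.2 CPM (siNT) to 32.6, 40.9 and 36.3 CPM (siMt2). Its groups did not overlap, and the log2 fold change was 1.56 (SE 0.14, edgeR adjusted p = 2.00e-08), or 2.94-fold with an interval of 2.39 to 3.62. Ccl7, a monocyte attractant whose gene lies next to Ccl2 on rat chromosome 10, stood at 10.5, 12.7 and 12.1 CPM and at 26.6, 25.1 and 27.5 CPM. It rose 2.24-fold (1.81 to 2.78; log2 fold change 1.17, SE 0.15, edgeR adjusted p = 1.69e-06). These neighbours are also related in sequence, and the division of shared reads between them is equally unknown. The log2 ratio of Ccl2 to Ccl7 counts was 0.07 ± 0.27 in siNT and 0.46 ± 0.21 in siMt2 (SD, n = 3 each), and the libraries overlapped (exact two-sided permutation p = 0.2).

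Cxcl10, an interferon-inducible ligand of CXCR3 on T cells, was the least certain of the ligands that rose. Its CPM were 3.97, 1.67 and 4.29 in siNT and 9.20, 3.78 and 5.99 in siMt2, from 22, 7 and 28 and from 63, 16 and 17 counts. The groups overlapped, siMt2 replicate 2 lying below siNT replicates 1 and 3, and replicates varied by 43.1% of the mean in both groups. The log2 fold change of 0.93 (SE 0.36) passed at an edgeR adjusted p of 0.0370. It no longer passed without siMt2 replicate 1 (log2 fold change 0.47, adjusted p = 0.3998), without siNT replicate 2 (0.66, 0.156), without siNT replicate 1 (1.04, 0.0649) or in DESeq2 (0.93, 0.0821), nor in libraries thinned to the smallest total count (0.79, 0.116). Over all alternatives tried the adjusted p lay between 0.00994 and 0.3998.

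Ccl20, the ligand of CCR6, was too low to be tested. Its counts were 3, 1 and 3 in siNT and 1, 3 and 3 in siMt2, at most 1.06 CPM. Pooled, 7 counts in each group gave a ratio of 1.18 with a 95% counting interval of 0.352 to 3.93, which leaves out a rise of the size seen for Cxcl1. Changes within that interval were not detectable at this depth. Its window held the NF-kB consensus.

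Cxcl16 is made as a transmembrane protein that also acts as a scavenger receptor for oxidised lipoprotein. It stood at 19.0, 20.3 and 16.9 CPM in siNT and at 33.1, 32.4 and 40.1 CPM in siMt2. All siMt2 libraries lay above all siNT libraries, with a 1.87-fold rise (1.55 to 2.27; log2 fold change 0.90, SE 0.13, edgeR adjusted p = 9.87e-06). Cx3cl1, or fractalkine, is tethered to the membrane by a mucin-like stalk and binds CX3CR1 on monocytes and microglia. Its counts were 0, 0 and 1 in siNT and 24, 13 and 9 in siMt2, that is 3.50, 3.07 and 3.17 CPM in the latter. Pooled, 1 count against 46 gave a ratio of 54.1 with a counting interval of 9.24 to 2183, and its edgeR adjusted p was 6.14e-06. The fitted log2 fold change was 5.26, against 4.65 in limma-voom and 5.60 in DESeq2. With 1 library left out it lay between 4.80 and 6.97, the highest value being that without siNT replicate 3, which holds the only siNT count.

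Cxcl12, the homeostatic ligand that retains stem and immune cells through CXCR4, had the most counts of the 10 genes. Its CPM were 182, 170 and 181 in siNT and 539, 543 and 546 in siMt2. The libraries of each group were tightly grouped, with replicates varying by 3.83% and 0.624% of the mean. The means of 178 ± 6.81 and 543 ± 3.39 CPM (SD, n = 3 each) gave a 3.05-fold rise (2.85 to 3.26; log2 fold change 1.61, SE 0.05, edgeR adjusted p = 4.48e-16). Its 95% interval on the log2 scale, 1.51 to 1.71, lay inside that of Ccl2 (1.26 to 1.86), above that of Ccl7 (0.86 to 1.48) and below that of Cxcl1 (3.22 to 3.69).

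Ackr3 had 523, 399 and 553 counts in siNT and 613, 353 and 235 in siMt2. In CPM the values were 94.5, 95.4 and 84.8 against 89.5, 83.5 and 82.8, and the groups overlapped. The log2 fold change was -0.09 (SE 0.08, edgeR adjusted p = 0.331), and its 95% interval of -0.25 to 0.07 corresponds to 0.842 to 1.047 times the siNT level. The interval excludes a rise of the size seen for Cxcl12. Under every alternative tried the value lay between -0.15 and -0.05 and did not pass (adjusted p from 0.160 to 0.587).

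**Figure D3:**
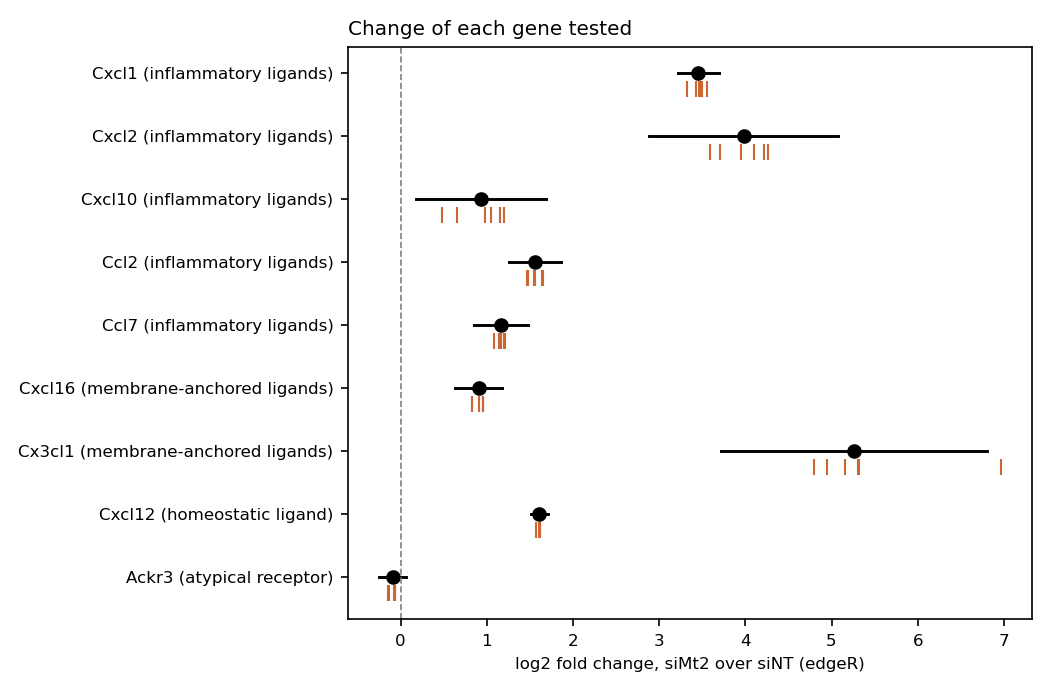
Log2 fold change of siMt2 over siNT (x axis, dashed line at 0) of the 9 genes tested; black points and lines are edgeR estimates with 95% intervals, and orange ticks are the 6 estimates with 1 library left out. Ackr3 straddles 0, Cxcl10 has the ticks nearest 0 among the ligands, and Cx3cl1 has the widest interval.

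Because raw counts depend on transcript length, levels were not compared between genes, but changes in the ratio of counts of a pair of genes within a library were. In siMt2 the ratio to Cxcl12 was higher for Cxcl1 and, in its mean, lower for Cxcl10. The log2 ratio of Cxcl1 to Cxcl12 went from -4.04 ± 0.25 in siNT to -2.15 ± 0.05 in siMt2 (SD, n = 3 each), a difference of 1.89 with no overlap. That of Cxcl10 to Cxcl12 was -5.81 ± 0.66 and -6.49 ± 0.63, with overlap (exact two-sided permutation p = 0.3). Within the inflammatory group, the log2 ratio of Cxcl1 to Ccl2 went from -0.20 ± 0.34 to 1.75 ± 0.16, without overlap. For Cxcl1 to Cxcl2 it was 4.78 ± 0.97 and 4.59 ± 0.50 (exact two-sided permutation p = 0.9). Its siNT values rest on 2, 2 and 1 counts of Cxcl2, too few to tell whether Cxcl1 and Cxcl2 changed alike. The ratio of the ligand Cxcl12 to its scavenger receptor Ackr3 rose 3.28-fold, from 0.96 ± 0.13 to 2.67 ± 0.07 on the log2 scale, and did so without overlap. For each of the 3 pairs without overlap the exact two-sided permutation p was 0.1, the smallest that 3 against 3 libraries allow, and 0.2 after Benjamini-Hochberg adjustment over the 6 pairs computed, so none could pass. The pairs were chosen after the counts were seen.

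The 9 ligands together took 0.0234 ± 0.000894% of the counts in siNT and 0.0779 ± 0.000829% in siMt2 (SD, n = 3 each). Cxcl12 held most of these ligand counts in every library, 75.5 ± 0.341% in siNT and 69.7 ± 0.792% in siMt2. Shares of raw counts also depend on transcript length, so they do not rank the genes by level. The share of Cxcl1 went from 4.61 ± 0.797% to 15.7 ± 0.368% of ligand counts, and from 27.7 ± 3.73% to 62.0 ± 0.698% of the counts of the 6 inflammatory ligands. Neither pair of ranges overlapped.

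Few other genes of the chemokine family had a row, and those had few counts. Of 27 other ligands 7 had a row and 0 had enough counts to be tested; the highest was Cxcl17 with 18 counts over all libraries, and the neutrophil attractant Cxcl6 had 10. Of 22 other receptors 6 had a row and again 0 could be tested, with Ackr4, another scavenger receptor, at 33 counts and Ccrl2 at 15. Cxcr5, Ccr4 and Ccr10 had 3 counts each and Cxcr6 2. Ligands and receptors with no row, Cxcr4, Cxcr2, Ccr2 and Cx3cr1 among them, were not analysed here. Ackr3 was therefore the one chemokine receptor of the list with counts that allowed a test.

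Adam17 and Adam10, genes of proteases that release membrane-anchored chemokines, were lower in siMt2. Of 5 tested genes for ligand cleavage 0 rose and 2 fell, while 3 did not pass (median log2 fold change 3.00e-04); 2 of 5 called is no more than the 50.9% called among all genes tested. At an unadjusted p under 0.05 none of the 5 was higher (0), and DESeq2 and limma-voom called 0 higher. Adam17 fell from 119 ± 4.84 to 71.8 ± 3.16 CPM (SD, n = 3 each; log2 fold change -0.73, SE 0.07, edgeR adjusted p = 3.98e-08) and Adam10 from 79.9 ± 5.15 to 57.1 ± 5.85 CPM (-0.50, SE 0.09). Both encode sheddases known to cut CX3CL1 and CXCL16 from the cell surface. The inhibitor gene Timp3 (15.8 ± 2.29 and 17.0 ± 2.85 CPM) and the protease gene Mmp2 (13.2 ± 1.20 and 13.7 ± 2.40 CPM) did not pass.

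Of 7 tested genes for receptor kinases, arrestins and the adrenomedullin axis 4 rose, 1 fell and 2 did not pass (median 0.47), where 25.8% of all genes tested rose and 25.1% fell. Adrenomedullin, encoded by Adm, is another peptide that ACKR3 can bind, and Adm rose from 8.74 ± 3.43 to 123 ± 8.31 CPM (3.801 on the log2 scale). Its signalling receptor is a complex of the CALCRL protein with a RAMP protein. Calcrl fell from 17.2 ± 0.879 to 7.61 ± 3.65 CPM (-1.25), while Ramp2 rose from 1.22 ± 0.538 to 3.94 ± 1.67 CPM (1.63, edgeR adjusted p = 0.00801), both without overlap. Ramp2 met the count filter only through its siMt2 libraries. Its place among the tested genes, and so among the 4 that rose, already required a difference. The kinase genes Grk6 (0.80) and Grk2 (0.47), whose products phosphorylate chemokine receptors, rose, each with an edgeR adjusted p of at most 2.44e-05.

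Genes of the signals that induce inflammatory chemokines moved in part. Of 12 tested cytokines and receptors 6 rose, 1 fell and 5 did not pass (median log2 fold change 0.21); 7 of 12 called is near the 50.9% called among all genes tested. Il6 rose from 5.81 ± 1.59 to 19.9 ± 2.77 CPM (1.80), the interferon-gamma receptor gene Ifngr2 from 38.0 ± 2.12 to 81.2 ± 2.84 CPM (1.10) and the interleukin-1 receptor gene Il1r1 from 87.3 ± 3.70 to 123 ± 4.07 CPM (0.51). Tlr4, the endotoxin receptor gene, fell from 33.4 ± 2.28 to 17.3 ± 1.47 CPM (-0.96). Il1a had 0 counts in siNT and 5 in siMt2, too few to test, and Ifng had 3 and 0. Tnf and Il1b had no row under these symbols and were not analysed here.

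Of 17 tested NF-kB factors and inhibitors 10 rose, 2 fell and 5 did not pass (median 0.39), where 25.8% of all genes tested rose, 25.1% fell and 50.9% were called in either direction. The inhibitor gene Tnfaip3 rose from 17.4 ± 0.351 to 47.0 ± 3.82 CPM (log2 fold change 1.45), and the subunit genes Relb (1.24) and Nfkb2 (0.45) and the antiapoptotic Birc3 (1.17) rose with it. Their edgeR adjusted p was at most 1.83e-04. The 2 that fell were Chuk (-0.34, edgeR adjusted p = 6.13e-04) and Rel (-0.52, 0.0416), the latter also a subunit gene. Rela, the main transactivating subunit, stood at 85.2 ± 8.95 and 83.9 ± 1.34 CPM (log2 fold change -0.02, adjusted p = 0.888). Rela, Rel and Chuk were named after their values were seen.

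Of 8 genes on a list for the control of AU-rich transcripts, a class to which several chemokine transcripts belong, 2 rose, 1 fell and 5 did not pass (median 0.09), fewer called than the 50.9% among all genes tested. The 1 that fell, Dusp1, encodes no RNA-binding protein but a phosphatase that limits p38 signalling; of the 7 others 2 rose and 5 did not pass. Dusp1 fell from 107 ± 2.07 to 38.1 ± 3.82 CPM (-1.46 on the log2 scale, SE 0.09, edgeR adjusted p = 2.45e-11). Hnrnpd (0.72) and Zfp36l2 (0.55) rose. Zfp36l1, whose product speeds the decay of such transcripts, stood at 46.7 ± 3.95 and 55.8 ± 10.9 CPM and did not pass.

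**Figure D4:**
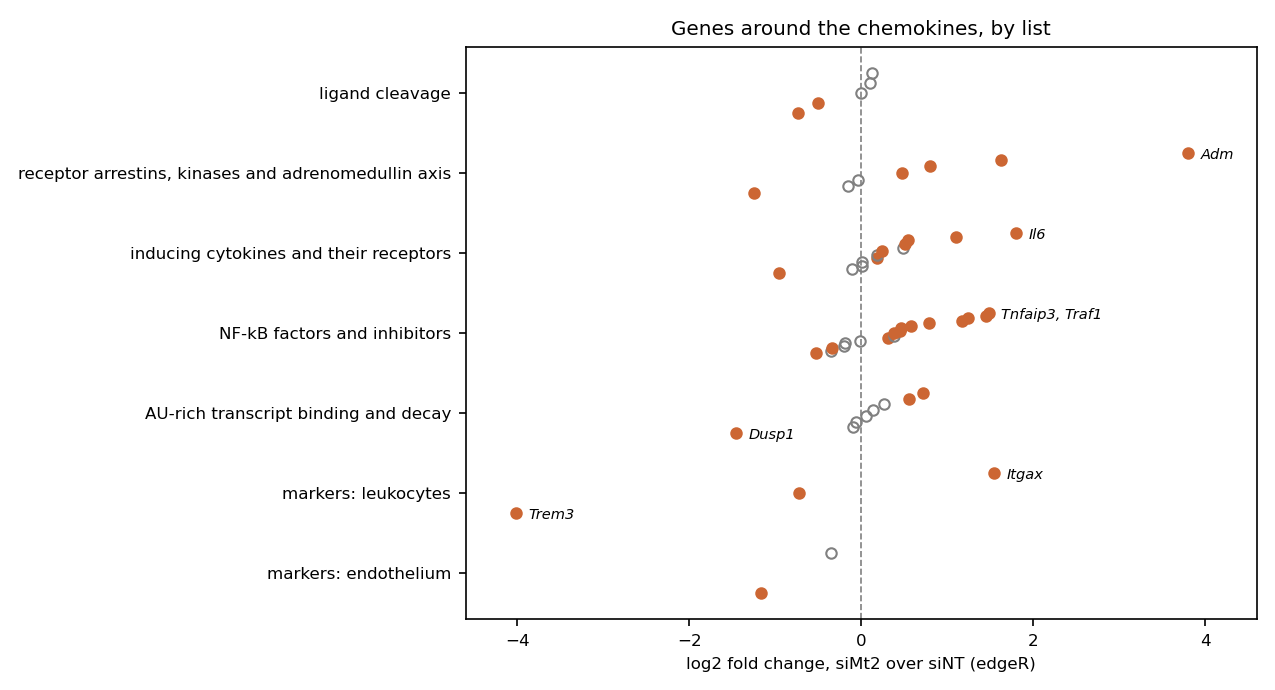
Log2 fold change of siMt2 over siNT (x axis) of each tested gene in 7 lists (y axis); filled orange points passed an edgeR adjusted p of 0.05 and open grey points did not. Il6, Adm and Tnfaip3 lie to the right, and Dusp1 and Trem3 to the left.

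Leukocytes and endothelium are also sources of chemokines, and their markers were sparse and, summed, lower in siMt2. Of 15 leukocyte markers 8 had a row, with summed levels of 44.7 to 47.8 CPM in siNT and 27.5 to 30.5 CPM in siMt2. The pan-leukocyte gene Ptprc had 2 counts over all libraries, Cd3e 16 and Cd68 17. The 3 tested were Cd14 and Trem3, which fell, and Itgax, which rose (log2 fold change 1.54). Among all genes tested 25.8% rose, 25.1% fell and 50.9% were called in either direction. Most of the leukocyte sum was Cd14 (23.5 CPM in siNT, 14.4 in siMt2) and Trem3 (16.6 and 0.939 CPM), so its fall was mostly that of these 2 genes. Of 8 endothelial markers 4 had a row, and their sum lay between 76.3 and 85.4 CPM in siNT and between 33.5 and 40.9 CPM in siMt2, most of it Eng. Of the 2 tested, Eng fell (log2 fold change -1.16) and Vwf did not pass (-0.35, edgeR adjusted p = 0.398). Tek had 11 counts over all libraries and Tie1 had 3. Fibroblast markers summed to 7444 to 7619 CPM and to 9528 to 13520 CPM, and smooth muscle markers to 2493 to 2512 CPM and to 4225 to 4342 CPM, both higher in siMt2 as the chemokine ligands were. Col1a1, which rose by 0.73 on the log2 scale, made up most of the fibroblast sum. Of the 7 fibroblast markers tested 5 rose, against 25.8% of all genes tested, and the collagen genes Col3a1 (log2 fold change 0.05) and Col1a2 (0.79) did not pass. The other marker listed, Pdgfra, had 2 counts over all libraries and was not tested. Among those that rose, Dcn (50 counts over all libraries) and Lum (51) met the count filter only through their siMt2 libraries. Their presence among the tested genes thus already required a difference. The smooth muscle sum was mostly Acta2 (0.81) and Tagln (1.74). Of its 7 tested markers 4 rose, against 25.8% of all genes tested, and 2 fell, against 25.1%. Those that fell were Pdgfrb (-0.46, edgeR adjusted p = 5.89e-08) and Myocd (-0.32, 0.00582), and Smtn did not pass (-0.04). The part of these cell types in the chemokine result was not tested. In bulk RNA, fewer cells of a type and less RNA per cell cannot be told apart.

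By Pearson correlation of log2 CPM over the 6 libraries, the genes most like Cxcl1 were Vps4a, Dbf4 and Kdm2a (r from 0.9994 to 0.9998), and those most like Cxcl12 were Txnrd1, Fads3 and Creb3l2 (0.9995 to 0.9998). Of the 11725 other genes tested, 1217 exceeded 0.95 with Cxcl1 and 1268 with Cxcl12. The 6 points form 2 separate groups and share their library depths, so these values describe likeness of pattern only.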

How the data were processed

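The authors deposited raw whole-number counts per gene, 1 file per library, with no normalization. Per the submitters' processing notes, the tools included HISAT2 2.2.1, featureCounts and Trimmomatic 0.40, with limma and DESeq2, and the build was rn6, without order or settings; strand and the treatment of reads matching several genes are not given in the sources used here. In 25 rows (0.26% of counts) a spreadsheet had turned gene names into dates, written differently between files; they were kept unnamed. Groups and replicate numbers came from the sample titles, and 0 columns were left without a sample.

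The analysis used edgeR 4.0.16 in R 4.3.3: filterByExpr (minimum count 10), TMM, and the robust quasi-likelihood test, two-sided, over all genes, with Benjamini-Hochberg adjustment and a threshold of 0.05. Intervals are 95%; those of pooled counts are exact binomial (without molecular identifiers they hold for counting error alone). A count of 3, the limit that a count of 0 allows, equals 0.44 to 1.05 CPM. Ratios of genes used a pseudocount of 0.5. Alternatives were other scalings, filters, the replicate block, each library left out, DESeq2 1.42.0 and limma-voom (limma 3.58.1). The procedures were tested on simulated data. The members and lists were chosen with earlier results of these data known. Named genes are Mt2a, all members, tested chemokine ligands and receptors, up to 4 genes per other list by smallest adjusted p, and 3 genes most like Cxcl1 and Cxcl12. Other genes named, those too low to test among them, were chosen after their values were seen. The result of 1 list, interferon factors, is not reported here.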

Additional observations from a re-analysis of the deposited data

How the results depend on the processing

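Of 123 values of the 9 tested genes under 14 alternatives, 118 kept their direction and their side of the threshold; the 5 that did not were all Cxcl10, described above. With libraries thinned to the smallest total, an alternative chosen after seeing the data, 5 genes were called higher in place of 8, because Cxcl2 and Cx3cl1 no longer met the count filter and Cxcl10 no longer passed. The stricter filter also removed Cx3cl1 and left 7. With 1 library left out the count was 7 to 8, and 0 genes were called lower under any alternative. With the replicate number as a block, 8 of the 9 were called higher, as without it, and 2968 of all genes higher and 2929 lower against 3026 and 2945. Same-numbered libraries did not deviate together (correlations of -0.06 to 0.023), so the numbers were not taken to pair samples. Depth limits Ccl20, Cxcl2 and Cx3cl1 in siNT, each at 3 counts or fewer per library.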
